A study of Mus musculus with 45 samples.

Results

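The 9 genes described here encode transcription factors and cofactors that have been linked to zygotic genome activation in the mouse: the nuclear receptors Nr5a2 and Rarg, the SAP-domain proteins Dppa2 and Dppa4, the Krüppel-like factors Klf5 and Klf17, the NF-Y subunit Nfya, and the coactivator Yap1 with its DNA-binding partner Tead4. They were named by gene symbol, with no cut on a measured value, and were 9 of the 26214 genes in the table. All 9 had a row.

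Zygotic genome activation is the switch by which an embryo stops living on RNA stored in the egg and starts to transcribe its own genes. In the mouse its major wave falls in the late two-cell embryo. Until then the oocyte supplies the factors, so a regulator of activation can be stored in the oocyte as RNA or protein, or be transcribed by the embryo itself. Nuclear receptors bind DNA as ligand-regulated or constitutive factors, DPPA2 and DPPA4 work as a pair on chromatin, Krüppel-like factors bind GC-rich motifs, NF-Y is a trimer that binds CCAAT, and YAP1 has no DNA-binding domain and reaches its targets through TEAD proteins.

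The libraries came from fully grown oocytes (FGOs; 6 libraries, 3 control and 3 K36M) and from late two-cell embryos (16 libraries, 8 from control and 8 from K36M oocytes). Control FGOs carried H3f3b K36M-flox/+. K36M FGOs carried the same allele with Gdf9-Cre, in which the oocyte-specific Gdf9 promoter drives Cre. H3f3b, a gene for histone H3.3, then makes H3.3 with methionine in place of lysine 36. The study reported that this form lowered dimethylation of that residue in FGOs, with almost no effect on its trimethylation. The strain of the females is given as hybrid C57BL/6 / 129, and the FGOs came from ovaries of females of 3 to 4 weeks. For the embryos, females of the same genotypes were superovulated with hormones, their ovulated oocytes were fertilized in vitro with JF-1 sperm, and the embryos were collected 31 to 32 h later. An FGO library held pooled oocytes and an embryo library 1 embryo; an embryo of a K36M oocyte may or may not have inherited the recombined allele, and the labels do not say which did.

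Control embryo replicate 4 is marked as excluded for a technical problem and was left out. This left 7 control and 8 K36M oocyte-derived embryos. Between 13218 and 14131 genes reached 1 TPM (a transcript level scaled for gene length and for the library, so that each library sums to 1000000) in FGO libraries. In the embryos used, between 10774 and 15557 did so in control and between 9722 and 13303 in K36M oocyte-derived embryos. The median rank correlation of a library with the others of its stage was 0.935 to 0.948 in FGOs. It was 0.750 to 0.811 in control and 0.718 to 0.788 in K36M oocyte-derived embryos. Gapdh, 1 of 7 reference genes looked at, was listed at 0 in control embryo replicate 6 and K36M oocyte-derived embryo replicate 8. H3f3b, summed over both alleles, stood at 293 ± 24.6 TPM in control FGOs (SD, n = 3) and 398 ± 20.8 TPM in K36M FGOs (SD, n = 3), a sum that does not show which allele was read. TPM values do not show how many reads a single value rests on. The study's own list of total reads, not used here, has every FGO library deeper than every embryo library.

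The identity of the tissues was checked with marker genes. All 9 oocyte markers were above 1 TPM on average in each FGO group. Their summed level was 19440 to 19699 TPM in control FGOs and 16973 to 18358 TPM in K36M FGOs, without overlap. Markers of granulosa and cumulus cells, which surround the oocyte, summed to 44.4 to 64.5 TPM in control FGOs and 44.4 to 54.4 TPM in K36M FGOs, and to 1.37 to 114 TPM in control and 0 to 148 TPM in K36M oocyte-derived embryos. The 6 blood markers summed to at most 0.185 TPM in control FGOs and 0.38 TPM in K36M FGOs, but reached 306 TPM in 1 of the K36M oocyte-derived embryos. The 5 stroma markers summed to 2.45 to 8.86 TPM in FGOs and 2.47 to 56.7 TPM in embryos. Their part in the results was not tested.

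The genes lie on 8 chromosomes in GRCm38 (mm10), and no other RefSeq gene overlaps any of them. Dppa4 (chr16:48283735-48294292, plus strand) and Dppa2 (chr16:48310274-48319513, plus strand) are neighbours with 15981 bases between them. Nr5a2 lies at chr1:136842562-136960448, Klf17 at chr4:117756659-117765666, Tead4 at chr6:128227143-128300813, Yap1 at chr9:7931999-8004638, Rarg at chr15:102234938-102257522 and Nfya at chr17:48386885-48409820, all on the minus strand, and Klf5 at chr14:99298691-99313412 on the plus strand.

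RefSeq promoter windows, 250 bases before to 50 bases after a transcript start, were found for 5 of the 9 genes. The windows of 3 genes with a match for NF-Y or TEAD and 1 with matches for Krüppel-like factors are shown, to let the motifs be read in place. The motifs searched on both strands were CCAAT for NF-Y, GGAATG for TEAD, AAGGTCA for NR5A receptors and CCNCNCCC for Krüppel-like factors. CCAAT was in 37.4% of all 32851 promoter windows, GGAATG in 14.7%, AAGGTCA in 4.72% and CCNCNCCC in 49.5%. The first 3 sequences have CCAAT and GGAATG in capitals on either strand, and the fourth has CCNCNCCC in capitals, where overlapping matches run together; each is written 5′ to 3′ on the gene's own strand, and positions count from the start, with -1 as the base before it.
Klf17 (chr4:117765617-117765916, minus strand): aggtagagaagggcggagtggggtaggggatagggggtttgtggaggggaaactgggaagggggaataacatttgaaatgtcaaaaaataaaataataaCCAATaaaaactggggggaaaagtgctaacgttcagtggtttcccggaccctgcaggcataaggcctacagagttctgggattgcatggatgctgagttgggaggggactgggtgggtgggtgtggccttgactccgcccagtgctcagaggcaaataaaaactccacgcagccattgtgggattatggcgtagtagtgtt
Yap1 (chr9:8004547-8004846, minus strand): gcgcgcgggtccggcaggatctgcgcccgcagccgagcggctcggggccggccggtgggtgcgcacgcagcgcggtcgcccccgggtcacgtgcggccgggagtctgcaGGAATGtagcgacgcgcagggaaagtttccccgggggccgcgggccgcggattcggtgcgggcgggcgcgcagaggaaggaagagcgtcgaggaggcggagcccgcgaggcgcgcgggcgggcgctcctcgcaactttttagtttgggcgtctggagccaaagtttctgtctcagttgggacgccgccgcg
Nr5a2, a start inside the gene (chr1:136953581-136953880, minus strand): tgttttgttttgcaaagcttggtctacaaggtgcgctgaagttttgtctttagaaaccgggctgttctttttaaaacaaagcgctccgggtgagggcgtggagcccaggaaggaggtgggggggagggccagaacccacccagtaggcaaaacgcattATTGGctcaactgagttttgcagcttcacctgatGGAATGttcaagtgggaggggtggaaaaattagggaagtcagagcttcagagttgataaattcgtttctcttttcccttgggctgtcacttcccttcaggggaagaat
Rarg (chr15:102257473-102257772, minus strand): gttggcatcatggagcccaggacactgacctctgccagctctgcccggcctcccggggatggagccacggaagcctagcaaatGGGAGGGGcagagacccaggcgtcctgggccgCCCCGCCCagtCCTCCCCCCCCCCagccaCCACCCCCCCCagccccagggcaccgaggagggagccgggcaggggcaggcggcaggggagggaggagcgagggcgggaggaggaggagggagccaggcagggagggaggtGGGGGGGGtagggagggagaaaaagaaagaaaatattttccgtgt

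The Klf17 window held 1 CCAAT at -151. The Yap1 window held 1 GGAATG at -141, the motif of the partner through which YAP1 binds DNA. The start of Nr5a2 inside the gene had CCAAT at -92 and GGAATG at -58, while the window at the 5′ end of Nr5a2 (chr1:136960399-136960698) held none of the 4 motifs. The Rarg window held 9 matches to CCNCNCCC, many of them overlapping. CCNCNCCC also matched 2 times in the Klf17 window and 4 times at the start inside Nr5a2. Each of the 2 windows at the 5′ end of Nfya held 4 matches to CCNCNCCC and no CCAAT; another window, inside the gene, held CCAAT at -137. At the 5′ ends of the 5 genes, CCAAT was in the window of 1 gene, GGAATG of 1 and CCNCNCCC of 3, and AAGGTCA was in none of the windows. These counts are too small to set against the shares over all promoters. A match is a run of letters and not a measured binding site.

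In control FGOs the 9 genes fell into a high, a middle and a low set. Klf17, Nfya and Yap1 led with mean levels of 473, 453 and 403 TPM, and neighbours in this order overlapped between libraries. Dppa2 (128 TPM), Nr5a2 (71.0 TPM) and Dppa4 (16.5 TPM) followed, each separated from the next by a gap between libraries. Rarg, Klf5 and Tead4 were lowest, at or under 2.203 TPM in every control FGO library, and neighbours in the order Rarg, Klf5, Tead4 overlapped, while Rarg was above Tead4 in every library.

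In control two-cell embryos the order was different. Yap1 led with 1006 TPM and did not overlap with the next gene. Klf5 (472 TPM), Klf17 (470.5 TPM), Dppa4 (237 TPM), Nr5a2 (174 TPM), Dppa2 (147 TPM), Nfya (116 TPM), Rarg (107 TPM) and Tead4 (47.6 TPM) followed, and each overlapped with its neighbour. In K36M oocyte-derived embryos every neighbouring pair overlapped, and the order was Yap1, Klf17, Dppa4, Klf5, Dppa2, Nr5a2, Nfya, Rarg and Tead4.

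**Figure D1:**
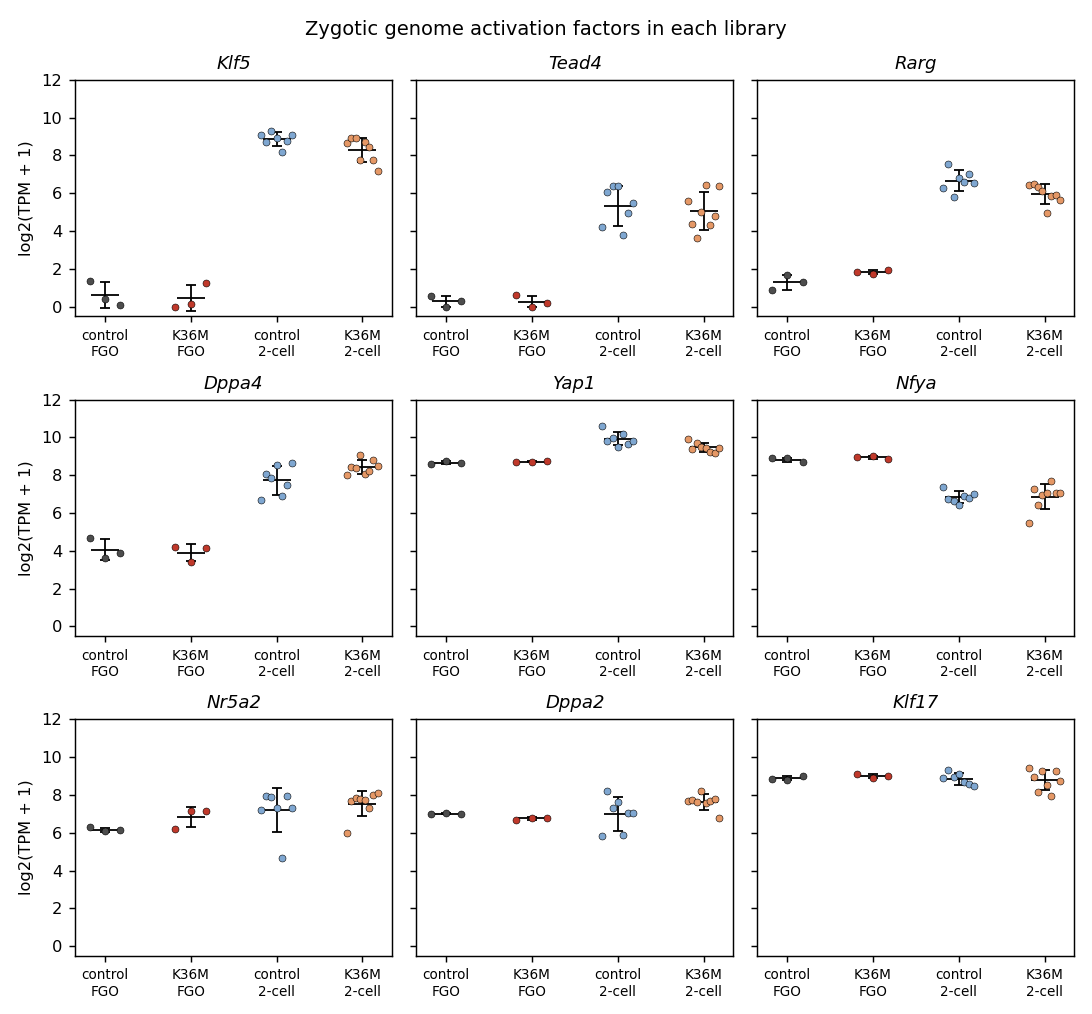
Level of the 9 genes in each library as log2(TPM + 1), for 3 control FGO, 3 K36M FGO, 7 control and 8 K36M oocyte-derived two-cell embryo libraries. Points are libraries, and bars are the mean and SD; Klf5, Tead4, Rarg, Dppa4 and Yap1 sit higher in all embryos than in all FGOs, Nfya lower, and Nr5a2, Dppa2 and Klf17 overlap between the stages.

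The first comparison asked how each factor stood in two-cell embryos against FGOs of the same origin. TPM is a share of a library, so stage differences here are differences in share and not in RNA amount per oocyte or embryo. Klf5, Rarg, Tead4, Dppa4 and Yap1 rose and Nfya fell in control material, and the same 6 genes moved in the same direction in K36M material. Nr5a2, Dppa2 and Klf17 did not pass the test in either. With limma and an adjusted p under 0.05, 13.4% of the 17358 genes tested rose and 13.2% fell in control material, and 10.8% rose and 18.6% fell in K36M material. Rises were 50.3% of all calls in control material and 38.6% after median-of-ratios scaling. The embryos and FGOs of the 6 genes that passed did not overlap, as was so for 32.3% of all genes tested in control and 26.2% in K36M material. Klf5 and Tead4 were under a mean of 1 TPM in FGOs and entered these fits only through the embryos, where they were high. Of the 7 factors at a mean of at least 1 TPM in both groups, 3 rose (Rarg, Dppa4 and Yap1) and 1 fell (Nfya) in either material. Among all genes at that level in both groups, 12.9% rose and 14.7% fell in control and 11.5% rose and 21.4% fell in K36M material. The median difference of the 7 was 1.02 on the log2(TPM + 1) scale in control and 0.76 in K36M material, against -0.36 and -0.65 over those genes. Stage coincides with the number of cells per library, the number of amplification cycles, read depth, superovulation and the JF-1 paternal genome of the embryos. None of these can be told apart from it. RNA left from the oocyte and RNA made by the embryo are summed in every value.

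Among the Krüppel-like factors, Klf5, which acts in the first lineages of the embryo, was near 0 in every FGO library. It was at 1.58, 0.341 and 0.0567 TPM in control FGOs and at 0, 0.0957 and 1.35 TPM in K36M FGOs. Control embryos ranged from 285 to 619 TPM with a median of 489 TPM, and K36M oocyte-derived embryos from 141 to 484 TPM with a median of 377 TPM. No embryo came near the highest FGO. Klf5 was tested only because of its level in the embryos. The difference on the log2(TPM + 1) scale was 8.22 ± 0.43 (SE) in control material (limma, adjusted p = 7.87e-13) and 7.83 ± 0.42 in K36M material (adjusted p = 9.29e-13).

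Klf17, a zinc-finger factor made in oocytes, was high at both stages. Control FGOs had 460, 447 and 513 TPM and K36M FGOs 550, 472 and 506 TPM. Control embryos spanned 350 to 635 TPM with a median of 480 TPM, and K36M oocyte-derived embryos 250 to 682 TPM with a median of 463 TPM. All 4 groups overlapped. The stage difference was -0.03 (95% interval -0.58 to 0.52) in control and -0.20 (95% interval -0.74 to 0.34) in K36M material.

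Of 17 genes of the Krüppel-like factor family, 9 were at a mean of at least 1 TPM in both groups, of which 1, Klf4, rose and none fell in either material, with a median difference of 0.88 in control and 0.43 in K36M material. Another 4, Klf2, Klf3, Klf5 and Klf9, were under 1 TPM in FGOs and were tested through the embryos alone; all 4 rose. Klf4, a pluripotency factor, stood at 12.9 ± 4.03 TPM in control FGOs (SD, n = 3) and 412 ± 189 TPM in control embryos (SD, n = 7), a log2 difference of 4.81 ± 0.39 (adjusted p = 1.77e-09). Klf9 differed by 4.92 ± 0.78 (adjusted p = 4.37e-05) and Klf2 by 4.58 ± 1.06 (adjusted p = 0.00221), and both also rose in K36M material. Klf2 was less firm there, since the call was lost when any 1 K36M FGO library was left out. As a share of the family's summed TPM, Klf17 went from 70.0% ± 2.37 in control FGOs (SD, n = 3) to 25.6% ± 5.18 in control embryos (SD, n = 7), while the family's sum went from 677 to 1861 TPM. Klf5 made up 25.6% ± 5.87 of it in the control embryos.

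Rarg, a receptor for retinoic acid, was low in FGOs. It stood at 0.831, 2.203 and 1.44 TPM in control FGOs and at 2.57, 2.31 and 2.88 TPM in K36M FGOs. In control embryos it ranged from 54.2 to 187 TPM with a median of 96.6 TPM, and in K36M oocyte-derived embryos from 29.6 to 90.1 TPM with a median of 63.5 TPM. Every embryo was above every FGO. The difference was 5.38 ± 0.46 in control (adjusted p = 4.88e-09) and 4.12 ± 0.45 in K36M material (adjusted p = 2.32e-07).

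Rarg was the only gene of its receptor list to rise. Of 6 retinoic acid and retinoid X receptor genes, 5 were at a mean of at least 1 TPM in both control groups, and 1, Rarg, rose, with a median difference of 0.42; in K36M material 4 were, 1 (Rarg) rose and 1 (Rxrb) fell, with a median of -0.17. Rara averaged 10.3 ± 1.08 TPM in control FGOs (SD, n = 3) and 16.7 ± 10.7 TPM in control embryos (SD, n = 7). Rarg held 11.1% ± 3.91 of the summed RAR level in control FGOs and 84.0% ± 12.6 in control embryos. In K36M material the shares were 18.96% ± 1.20 and 85.2% ± 13.9. Of 8 genes known to respond to retinoic acid, 3 were at that level in both control groups, of which 1, Crabp2, fell, with a median difference of -1.01, and 2 in K36M material, of which none passed the test, with a median of -2.92. Stra8, a gene of meiotic entry, rose by 4.58 ± 0.95 (adjusted p = 0.000889) in control and 5.43 ± 0.94 in K36M material (adjusted p = 0.000105); it was tested only through the embryos and was listed at 0 in all 3 control FGOs. Crabp2, which carries retinoic acid in the cytoplasm, differed by -4.01 ± 1.31 in control material (adjusted p = 0.0259) and by -3.31 ± 1.29 in K36M material (adjusted p = 0.0554). The control call for Crabp2 was lost when any 1 control FGO was left out.

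Nr5a2, an orphan nuclear receptor that binds DNA as a monomer, was already present in FGOs. Control FGOs had 77.1, 67.1 and 68.7 TPM. Control embryos ranged from 24.1 to 249.3 TPM with a median of 160 TPM, and K36M oocyte-derived embryos from 61.8 to 276 TPM with a median of 216 TPM. All but 1 control embryo were above all 3 control FGOs: replicate 6, at 24.1 TPM, was below them. The difference was 1.02 ± 0.53 in control (95% interval -0.09 to 2.12; adjusted p = 0.169) and 0.72 ± 0.52 in K36M material (95% interval -0.37 to 1.80; adjusted p = 0.335). Without control embryo replicate 6, which is one of the embryos with Gapdh at 0, the control difference was 1.44 and passed (adjusted p = 0.00626), in a fit in which 14.7% of all genes tested rose. It also passed with all embryos kept and array weights (1.29, adjusted p = 0.00098), a fit in which 28.1% of genes tested rose. In K36M material the difference ranged from 0.40 without K36M FGO replicate 1 to 0.94 without K36M oocyte-derived embryo replicate 1, and it did not pass under any alternative run. Of 5 NR5A and ESRR receptor genes, 3 were at a mean of at least 1 TPM in both groups and none, Nr5a2 included, passed the test in either material. Esrra, tested through the embryos alone, differed by 2.41 ± 0.90 in control material (adjusted p = 0.0492), a call that did not hold in most alternatives, and by 0.77 ± 0.88 in K36M material.

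Dppa2 and Dppa4 differed from each other by stage. DPPA4, a SAP-domain protein that binds chromatin with DPPA2, had 24.3, 11.3 and 13.9 TPM of its RNA in control FGOs and 17.2, 9.68 and 16.5 TPM in K36M FGOs. Control embryos spanned 101 to 394 TPM with a median of 231 TPM, and K36M oocyte-derived embryos 256 to 538 TPM with a median of 338 TPM. No embryo overlapped an FGO. The difference was 3.67 ± 0.40 in control (adjusted p = 2.05e-07) and 4.52 ± 0.39 in K36M material (adjusted p = 4.49e-09).

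Dppa2 was at 128, 131 and 126 TPM in control FGOs and at 102, 111 and 111 TPM in K36M FGOs. Control embryos ranged from 56.0 to 299 TPM with a median of 133 TPM, on both sides of the FGOs, and K36M oocyte-derived embryos from 107 to 296 TPM with a median of 204 TPM. The stage difference was -0.02 ± 0.40 in control (95% interval -0.85 to 0.81; adjusted p = 0.988) and 0.86 ± 0.39 in K36M material (95% interval 0.05 to 1.68; adjusted p = 0.102). In K36M material it passed when only these groups were fitted (adjusted p = 0.0433; 9.86% of genes tested rose) and with array weights (adjusted p = 0.00322; 19.3% rose). Dppa4 therefore made up 11.3% ± 4.18 of the pair's summed TPM in control FGOs (SD, n = 3) and 62.3% ± 8.97 in control embryos (SD, n = 7). The shares were 11.8% ± 3.36 and 63.4% ± 6.69 in K36M material.

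**Figure D2:**
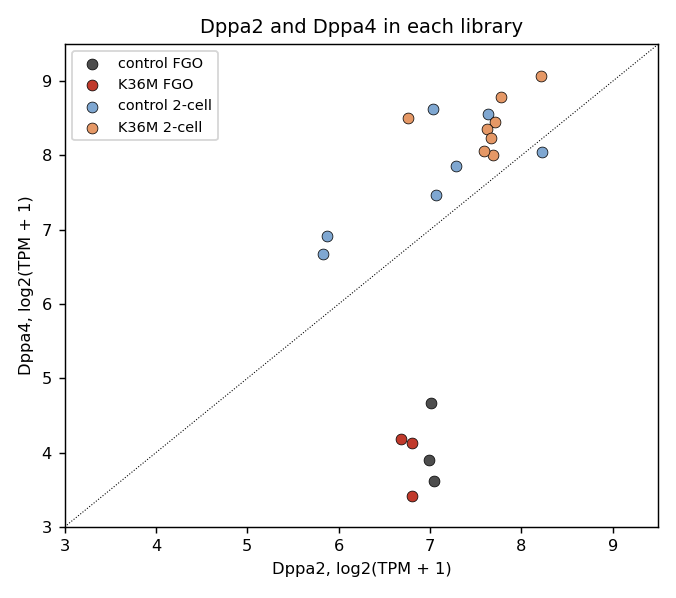
Dppa2 against Dppa4 as log2(TPM + 1) in 21 libraries, coloured by group, with the dotted line where both are equal. FGOs lie far under the line, at a Dppa4 share of 7.93% to 15.97%, and embryos near or above it, at 46.9% to 77.2%.

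Of the NF-Y subunits, Nfya and Nfyc fell by stage and Nfyb rose. Nfya, which makes the sequence-specific contact with CCAAT, was at 472, 472 and 417 TPM in control FGOs and 492.6, 518 and 460 TPM in K36M FGOs. Control embryos ranged from 86.1 to 166 TPM with a median of 111 TPM, and K36M oocyte-derived embryos from 42.6 to 206 TPM with a median of 131 TPM. Every embryo was below every FGO. Nfya fell by 1.98 on the log2 scale (SE 0.34, adjusted p = 0.000104) in control and by 2.08 (SE 0.33, adjusted p = 4.1e-05) in K36M material.

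Nfyb, a histone-fold subunit, rose from 50.5 ± 1.97 to 214 ± 75.04 TPM in control material, a difference of 1.99 ± 0.33 (adjusted p = 7.96e-05). In K36M material it rose by 2.36 ± 0.32 (adjusted p = 5.96e-06). Nfyc, the other histone-fold subunit, fell by 1.29 (SE 0.42, adjusted p = 0.0238) in control and by 1.25 (SE 0.41, adjusted p = 0.0232) in K36M material, but either call was lost when any 1 FGO library of the same genotype was left out. Nfya was 55.6% ± 2.06 of the 3 subunits' summed TPM in control FGOs and 26.3% ± 8.27 in control embryos. The sum went from 815 ± 36.4 to 462 ± 95.3 TPM.

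**Figure D3:**
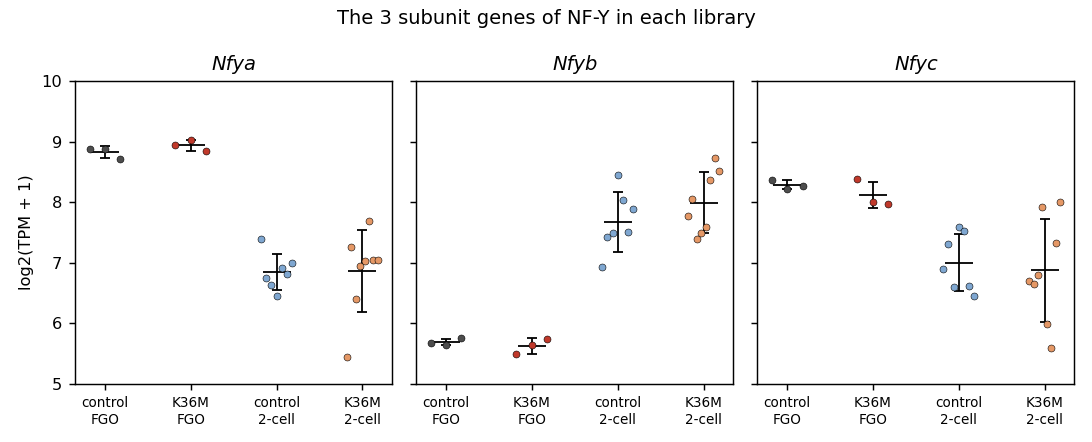
Levels of Nfya, Nfyb and Nfyc as log2(TPM + 1) in each of 21 libraries, with the mean and SD of each group. Nfya and Nfyc are lower and Nfyb is higher in embryos than in FGOs, with some overlap for Nfyc in K36M material.

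Yap1 was abundant in FGOs and higher in embryos. YAP1 is the coactivator that the Hippo kinases hold in check. Control FGOs had 388, 426 and 395 TPM and K36M FGOs 417, 414 and 430 TPM. Control embryos spanned 723 to 1531 TPM with a median of 911 TPM, and K36M oocyte-derived embryos 586 to 969 TPM with a median of 689 TPM. All embryos exceeded all FGOs. The rise was 1.28 ± 0.19 in control (adjusted p = 2.25e-05) and 0.76 ± 0.19 in K36M material (adjusted p = 0.00382). The K36M call was lost without the mean-variance trend (adjusted p = 0.0754).

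Tead4, the TEAD protein needed for the trophectoderm, was close to 0 in FGOs. It was listed at 0.459, 0 and 0.223 TPM in control FGOs and 0.517, 0 and 0.158 TPM in K36M FGOs. Control embryos ranged from 12.8 to 82.4 TPM with a median of 42.9 TPM, and K36M oocyte-derived embryos from 11.2 to 85.0 TPM with a median of 29.2 TPM. Every embryo was above every FGO, and the embryos of a group differed by several fold. Like Klf5, Tead4 was tested only because of its level in the embryos. The difference was 5.04 ± 0.70 in control (adjusted p = 7.61e-06) and 4.79 ± 0.69 in K36M material (adjusted p = 1.02e-05).

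Tead1, Tead2 and Tead3 averaged 5.76, 3.86 and 5.14 TPM in control FGOs and 9.15, 11.9 and 5.78 TPM in control embryos. Tead4 accordingly went from 1.61% ± 1.68 to 59.4% ± 23.7 of the summed TEAD level in control material, and from 1.73% ± 2.08 to 53.7% ± 31.4 in K36M material. Yap1 kept most of the summed Yap1 and Wwtr1 level at both stages, 98.1% ± 0.394 in control FGOs and 95.6% ± 1.56 in control embryos. Wwtr1, which encodes the paralogue TAZ, rose by 2.34 ± 0.63 (adjusted p = 0.00726) from 7.68 TPM.

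Of 18 genes of the Hippo pathway, 17, all but Tead4, were at a mean of at least 1 TPM in both groups; 4 rose and 1 fell in control material and 4 rose and 3 fell in K36M material, with medians of 0.10 and -0.22. Nf2, an upstream activator of the Hippo kinases, rose by 1.83 ± 0.30 (adjusted p = 6.34e-05). Mob1a, a kinase coactivator, rose by 1.47 ± 0.44 (adjusted p = 0.0153) in control material, with a call that was lost in K36M material under most alternatives. Of 7 YAP and TEAD target genes, 3 were at that level and 1 fell at each origin: Birc5, an inhibitor of apoptosis used in cell division, fell by 1.51 in control (SE 0.33, adjusted p = 0.00158) and by 1.81 in K36M material (SE 0.33, adjusted p = 0.000193).

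**Figure D4:**
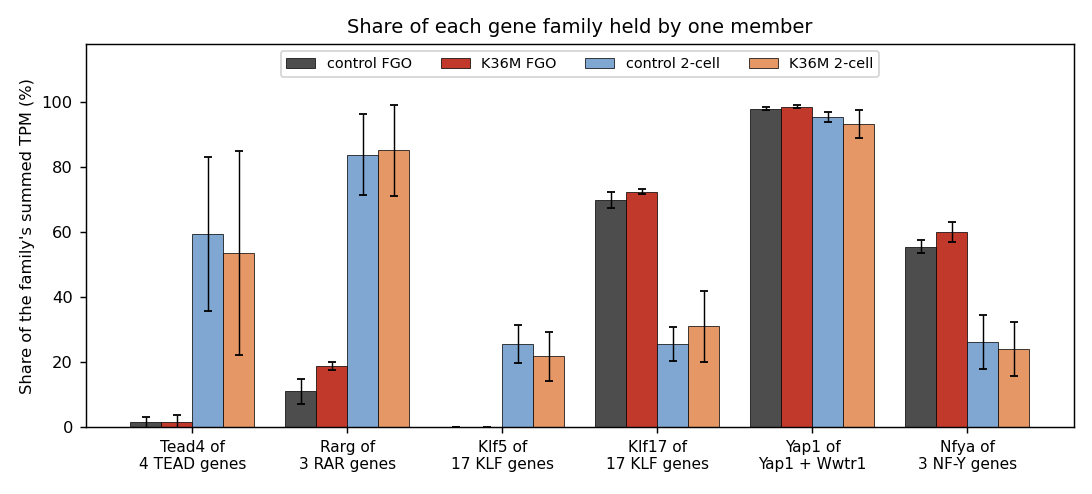
Share of a family's summed TPM held by 1 gene, as mean and SD over the libraries of each group. Tead4, Rarg and Klf5 make up a larger share in embryos than in FGOs, Klf17 and Nfya a smaller share, and Yap1 averages over 93% in every group.

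Genes known to mark the two-cell stage and the oocyte gave the scale for these differences. Of 9 two-cell genes, 5 were at a mean of at least 1 TPM in both control groups and 4 of them rose, with a median of 3.51; in K36M material 3 were, and 2 rose, with a median of 2.39. In control material, Zfp352, tested through the embryos alone, rose by 7.47 ± 0.82 (adjusted p = 2.43e-07), Usp17lc by 6.71 ± 1.30 (adjusted p = 0.000424) and Zscan4d by 3.97 ± 0.82 (adjusted p = 0.000805). All 9 oocyte markers fell at both origins, with medians of -3.95 and -4.19, for instance in control material the zona pellucida genes Zp3, by 5.37 (SE 0.42, adjusted p = 1.03e-09), and Zp2, by 4.67 (SE 0.41, adjusted p = 7.62e-09), and Nlrp5, a maternal-effect gene, by 3.47 (SE 0.22, adjusted p = 2.3e-11). Usp17lc and Zscan4d have near-identical copies, so their levels are uncertain. Of the granulosa and cumulus markers at that level in both groups, 1 of 3 fell in control and 1 of 6 in K36M material. Cyp19a1, the aromatase of granulosa cells, which in control material was tested through the FGOs alone, fell by 3.95 (SE 0.70, adjusted p = 0.000152) in control material, and Inha, an inhibin subunit, by 2.41 (SE 0.90, adjusted p = 0.049), a call that most alternatives did not keep. The stroma markers at that level in both groups, 1 in control and 2 in K36M material, did not pass, no blood marker was at that level in both, and Pdgfra, tested through the embryos alone, rose in control material by 2.40 ± 0.88 (adjusted p = 0.0442).

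**Figure D5:**
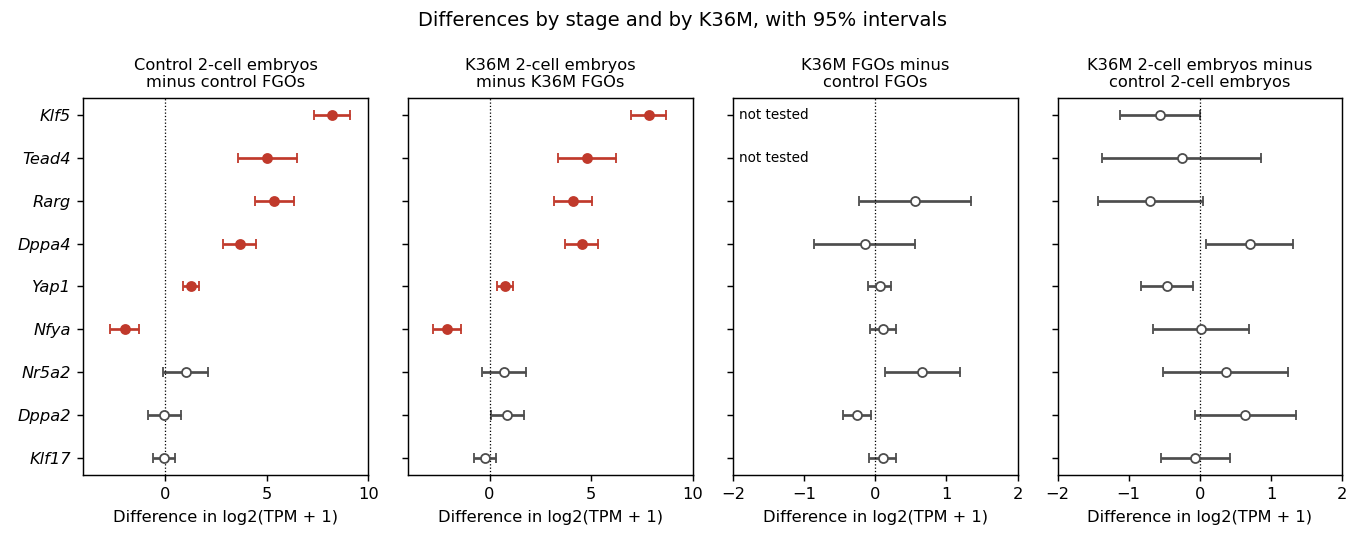
Differences in log2(TPM + 1) with 95% intervals from limma for the 9 genes in 2 stage comparisons and 2 K36M comparisons, filled red where the adjusted p is under 0.05. The stage panels show 6 filled genes each and the K36M panels none; Klf5 and Tead4 were under a mean of 1 TPM in FGOs and were not tested there.

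The second comparison asked whether the factors differed between K36M and control FGOs. None of the 7 genes that reached a mean of 1 TPM passed the test in limma, with adjusted p from 0.415 to 0.889, and 0.00726% of all genes tested (1 of 13775) passed. At an unadjusted p under 0.05, 1446 of the 13775 genes and 2 of the 7 factors, Nr5a2 and Dppa2, were under the threshold. The median difference of the 7 genes was 0.11, against 0.01 over all genes. The K36M libraries lay on one side of all control libraries for 2 of the 7, Rarg above and Dppa2 below, when this held for 15.6% of all genes tested.

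Nr5a2 stood at 71.0 ± 5.37 TPM in control FGOs (SD, n = 3) and at 72.6, 141 and 140 TPM in the K36M FGOs, so 1 K36M library was within the control range and the other two were above it. The difference was 0.66 ± 0.23 (95% interval 0.14 to 1.19; adjusted p = 0.415). Without K36M FGO replicate 1, the library at 72.6 TPM, it was 0.98 and passed (adjusted p = 0.0205), in a fit in which 1.38% of genes tested were higher in K36M FGOs. Rarg was 1.49 ± 0.687 TPM in control and 2.59 ± 0.289 TPM in K36M FGOs, a difference of 0.56 ± 0.35 (adjusted p = 0.594). Dppa2 was 128 ± 2.74 TPM and 108 ± 5.29 TPM, a difference of -0.25 ± 0.09 (95% interval -0.45 to -0.05; adjusted p = 0.415). For Klf17, Nfya and Yap1 the differences were between 0.06 and 0.11, and the widest of their 95% intervals ran from -0.09 to 0.30. For Dppa4 it was -0.15 (95% interval -0.86 to 0.57).

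The third comparison set K36M oocyte-derived against control two-cell embryos. None of the 9 factors passed the test in limma (adjusted p 0.572 to 0.992), nor did any gene (0% of 17362, with 1338 genes at an unadjusted p under 0.05 and a smallest adjusted p of 0.072). Without the mean-variance trend 5 genes passed, 1 with array weights and 1 without K36M oocyte-derived embryo replicate 8, none of them a factor described here. All 9 factors overlapped between the groups; 0.115% of genes tested did not. The median of the 9 was -0.06, against -0.26 over all genes. That shift over all genes was -0.17 after median-of-ratios scaling and -0.01 after quantile normalization, so differences are also given relative to it below.

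Dppa4 and Dppa2 were on average higher in K36M oocyte-derived embryos. Dppa4 averaged 355 ± 94.98 TPM (SD, n = 8) against 237 ± 116 TPM in control embryos (SD, n = 7), a difference of 0.70 ± 0.29 (95% interval 0.09 to 1.31; unadjusted p = 0.0258 in limma, adjusted p = 0.592), or 0.96 relative to the median gene. Dppa2 averaged 203 ± 51.0 against 147 ± 84.2 TPM, a difference of 0.63 ± 0.34 (95% interval -0.07 to 1.34; adjusted p = 0.672), or 0.89 relative to the median gene. Neither passed the test.

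Yap1, Klf5 and Rarg were on average lower. Yap1 averaged 719 ± 125 TPM against 1006 ± 273 TPM in control embryos, a difference of -0.46 ± 0.18 (95% interval -0.82 to -0.10; unadjusted p = 0.0151 in limma, adjusted p = 0.572), or -0.20 relative to the median gene. Klf5 averaged 338 ± 131 against 472 ± 109 TPM, a difference of -0.56 ± 0.27 (95% interval -1.12 to -0.003; unadjusted p = 0.049 in limma, adjusted p = 0.644), or -0.30 relative to the median gene. Rarg averaged 64.4 ± 20.3 against 107 ± 42.8 TPM, a difference of -0.70 ± 0.36 (95% interval -1.43 to 0.04; adjusted p = 0.654), or -0.44 relative to the median gene. None passed the test.

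Nr5a2 differed by 0.36 (95% interval -0.52 to 1.24), Tead4 by -0.26 (-1.38 to 0.87), Klf17 by -0.06 (-0.55 to 0.42) and Nfya by 0.01 (-0.66 to 0.69). The Nr5a2 difference rested on control embryo replicate 6, since it was -0.06 without that embryo. The Tead4 interval was the widest of the 9, and these embryos do not show whether it differed. The gene lists leaned both ways, beside a median of -0.26 and 63.8% of genes with a lower mean of log2(TPM + 1) over all genes. The lowest medians were -0.70 for the retinoid receptors, with 5 of 5 genes lower in K36M oocyte-derived embryos, and -0.65 for the Krüppel-like factors, with 12 of 13 lower. For Klf7 and Rarb, counted there as lower, the means of TPM itself were higher. The median was 0.01 for the NFY subunits, with 1 of 3 lower, 0.28 for the retinoic acid targets, with 3 of 6 lower, and 0.57 for stroma markers, with 1 of 4 lower. No gene of any list passed the test in either K36M comparison.

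Whether the effect of K36M differed between stages was tested by the interaction of genotype and stage. No factor passed (adjusted p = 1 for all 9; Klf5 and Tead4 were in this fit only through the embryos, and the sign for Klf5 turned with a pseudocount of 0.1), nor any gene in limma (0% of 17358, with 199 at an unadjusted p under 0.05 and a smallest adjusted p of 0.11). With other settings up to 13 of all genes passed, and none of the 9 factors did. The interaction was largest for Rarg at -1.26 (95% interval -2.59 to 0.08) and Dppa2 at 0.89 (-0.27 to 2.04). Over all genes the median interaction was -0.27. Relative to the median gene, Dppa2 was at 1.15, Dppa4 at 1.12 and Rarg at -0.99, so the order depended on that shift. The K36M stage difference of Rarg, 4.12, and its control stage difference, 5.38, were therefore not shown to differ.

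Some factors varied together with other genes across the 21 libraries. The genes with the highest Pearson correlation on the log2(TPM + 1) scale, of 17358, were Hexim1 (0.99) and Trim43b (0.99) for Klf5, Hdac1 (0.98) and Gm4850 (0.98) for Dppa4, Hbegf (0.98) and Tubgcp6 (0.98) for Rarg, and Gm11517 (0.96) and Zscan5b (0.96) for Tead4. They were Dot1l (0.95) and Siah2 (0.93) for Yap1, and Elobl (0.95) and Tnks1bp1 (0.94) for Nfya. The points were 6 FGO and 15 embryo libraries, between which these 6 factors differed. For the 3 factors with no called stage difference the values were lower for Klf17, with Sgta (0.75) and Fer1l5 (0.74), than for Nr5a2, with Ddx47 (0.93) and Ptdss2 (0.90), or Dppa2, with Rsl24d1 (0.89) and Fau (0.84). Which genes came first depended on the setting: 12 of these 18 were again named with a pseudocount of 0.1, 11 after quantile normalization and 7 in both. The libraries share their groups, so the values are descriptions only.

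The control embryo left out, replicate 4, was low in most of the 9 factors. It had 11.6 TPM of Dppa2, 25.3 TPM of Rarg, 32.9 TPM of Nfya, 87.4 TPM of Dppa4, 139 TPM of Klf5, 265 TPM of Klf17 and a listed 0 of Tead4, each below the lowest of the other 7 control embryos. Nr5a2 (76.2 TPM) and Yap1 (926 TPM) were within their range.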

How the data were processed

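RNA-seq libraries of mouse FGOs and two-cell embryos were compared as deposited. The authors trimmed reads with Trim Galore!, mapped them to mm10 with Hisat2, removed ribosomal RNA reads with BEDTools, counted genes with featureCounts and deposited TPM values, which sum to 1000000 in each library. The annotation, gene lengths and strand setting are not given in the sources used here, and the reads were not analysed here. The total reads per library that the study lists are not used here, and TPM values do not show the reads behind each of them, so no interval from read counts is given.

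Groups were taken from the labels. Log2(TPM + 1) was tested with limma 3.58.1 in R 4.3.3 (lmFit, eBayes with trend) for every gene whose TPM averaged 1 or more over the libraries of a fit. P-values were adjusted by Benjamini and Hochberg's method, and 0.05 was the threshold. FGOs and embryos were fitted apart for K36M, and 21 libraries together for stage and interaction. Fold changes understate those of low genes. Figures and tables used Python 3.11.15, pandas 2.3.3 and matplotlib 3.10.9. The fits were first tested on simulated data with normal noise and 1 spread per gene for all groups. That test did not cover the unequal spread of FGOs and embryos. The p-values measure the spread between these samples, since the labels do not state separate animals.

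The 9 genes and the gene lists were chosen with earlier results of these data known. All 9 are described; of each list, counts, the median and up to 3 genes are given, those past the threshold in a K36M comparison or with the smallest adjusted p in control stage, and the 2 genes with the highest correlation with each factor. The alternatives were a pseudocount of 0.1, no filter or a mean TPM of 5, quantile and median-of-ratios scaling, no trend, array weights, the replicate block, each library left out, control embryo replicate 4 added, and, for stage, only the groups compared. Positions and promoters came from RefSeq (GRCm38.p6).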

Additional observations from a re-analysis of the deposited data

Results flagged for a closer look

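Each factor was looked at within the 7 control and the 8 K36M oocyte-derived embryos for a lowest or highest embryo far from the others by Dixon's ratio, 18 checks of which chance marks about 1 in 20. In 3 of them the lowest embryo stood apart. Nr5a2 was 24.1 TPM in control embryo replicate 6, with the other 6 control embryos between 149 and 249.3 TPM. It was 61.8 TPM in K36M oocyte-derived embryo replicate 1, with the other 7 between 156 and 276 TPM. Dppa2 was 107 TPM in K36M oocyte-derived embryo replicate 8, with the other 7 between 192 and 296 TPM. Control replicate 6 and K36M oocyte-derived replicate 8 were the embryos in which Gapdh was listed at 0, and their genes at 1 TPM or more numbered 11392 and 9763. The part of this in the low values was not tested.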

How the results depend on the processing

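The 6 factors called by stage in control material were called in every alternative. In K36M material Yap1 was lost without the mean-variance trend, and the other 5 remained called in every alternative. Of the counts of factors called, 1 changed by over 1.5 times: 1 factor (Nr5a2) was called between K36M and control FGOs without K36M replicate 1, and 0 to 1 over all FGO libraries left out in turn, with 0 in the embryo comparison and the interaction. Directions turned only for differences that did not pass. With array weights Nr5a2 was called by stage in control material and Dppa2 in K36M material, and the control stage difference was 0.28 for Dppa2 and 0.074 for Klf17. Adding control embryo replicate 4 gave, between embryos, 0.036 for Klf17 and 0.41 for Tead4, and in the interaction 0.12 for Nfya and 0.41 for Tead4. Median-of-ratios scaling gave 0.042 for Klf17 between embryos and 0.050 for Nfya in the interaction, and a pseudocount of 0.1 gave 0.12 for Klf5 in the interaction. Leaving out 1 library gave -0.37 to 0.15 for Dppa4 in FGOs, -0.061 to 0.59 for Nr5a2, -0.15 to 0.053 for Klf17 and -0.11 to 0.21 for Nfya between embryos, and -0.23 to 0.17 for Dppa2 and -0.11 to 0.033 for Klf17 by stage in control material, and -0.22 to 0.10 for Nfya in the interaction. The cause was not tested.

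Same-numbered libraries of the 2 genotypes showed no clear pairing. The correlation of their deviations was 0.01 to 0.10 over 3 FGO pairs and -0.10 to 0.10 over 7 embryo pairs. In 1 pair of each stage both libraries correlated best with their own number. In the remaining FGO pairs 1 library of the pair did so, and 3 FGO pairs are too few to exclude pairing. With the replicate block, 0 factors were called in FGOs, 0 in embryos, 6 by stage in either material and 0 in the interaction. Of the 17358 genes tested by stage, that setting called 3887 in control and 4199 in K36M material. It called 0 of all genes in FGOs, in embryos and in the interaction. The control stage difference with the block was 0.11 for Dppa2 and 0.13 for Klf17. Over all genes, array weights raised the calls by stage from 4615 to 9730 in control and from 5094 to 8527 in K36M material. Leaving out 1 control FGO gave 2844 to 2877 calls in control (1265 to 1313 falls, against 2292), and leaving out 1 K36M FGO 3421 to 3478 in K36M material (2005 to 2074 falls, against 3228). Without K36M FGO replicate 1, 300 genes and not 1 were called between FGOs. TPM values do not show the reads behind a single value, so counting error was not given for zeros in single embryos.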
